A study of Mus musculus with 6 samples.

Results

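The members are 10 mouse genes that encode carriers of cystine and other amino acids, taken by gene symbol: Slc7a11, Slc3a1, Slc3a2, Slc7a5, Slc7a7, Slc7a1, Slc1a4, Slc1a5, Slc38a1 and Slc38a2. Every H3K9ac peak that the deposited table assigns to one of these symbols was kept, which gave 27 of 17901 peaks. All 10 genes had at least 1 peak. H3K9ac, an acetylated form of histone H3, marks active promoters and enhancers. It was profiled by CUT&RUN, in which a nuclease releases the DNA under an antibody-bound protein for sequencing. The libraries came from mouse lung endothelial cells, 3 from CSE-KO mice labelled Cre-positive and 3 from WT mice labelled Cre-negative. CSE (cystathionine gamma-lyase, gene Cth) forms cysteine from cystathionine inside the cell. The series title names cystine import and histone acetylation, and the comparison asks how loss of CSE bears on the mark. The sources used here give neither the Cre driver nor the age and sex of the mice. They do not say that each library is a separate animal either, so the p-values rest on a spread between libraries that may be partly technical.

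Outside cells, cysteine occurs mostly in its oxidized form, cystine. A main carrier for its uptake is system xc-, in which the light chain xCT (Slc7a11) exchanges glutamate inside the cell for cystine outside and the heavy chain 4F2hc (Slc3a2) holds it at the plasma membrane. The same heavy chain serves other light chains, among them those of Slc7a5 and Slc7a7. When amino acids run short, the transcription factor ATF4 raises many of these genes through amino acid response elements, and in endothelium the arginine carrier of Slc7a1 supplies nitric oxide synthesis.

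The 3 promoter windows that a member peak overlaps are shown because they tie the peaks to the DNA of the start sites. Each line gives the 250 bases before a RefSeq start on GRCm38.p6, 5′ to 3′ on the gene's strand, which is the minus strand for all 3 genes. Capitals mark matches to TGATGNAA, the core of an amino acid response element, searched on both strands.
Slc7a11, chr3:50443614-50443863: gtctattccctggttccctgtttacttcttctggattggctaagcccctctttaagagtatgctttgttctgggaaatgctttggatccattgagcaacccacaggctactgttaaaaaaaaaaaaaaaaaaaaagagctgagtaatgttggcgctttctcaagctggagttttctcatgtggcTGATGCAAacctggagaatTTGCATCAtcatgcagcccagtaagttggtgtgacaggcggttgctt
Slc1a4, chr11:20332714-20332963: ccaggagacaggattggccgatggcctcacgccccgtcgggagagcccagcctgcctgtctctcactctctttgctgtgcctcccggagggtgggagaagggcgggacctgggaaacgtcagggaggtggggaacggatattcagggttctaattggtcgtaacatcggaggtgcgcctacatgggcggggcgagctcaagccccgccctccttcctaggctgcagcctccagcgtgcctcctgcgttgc
Slc7a7, chr14:54410204-54410453: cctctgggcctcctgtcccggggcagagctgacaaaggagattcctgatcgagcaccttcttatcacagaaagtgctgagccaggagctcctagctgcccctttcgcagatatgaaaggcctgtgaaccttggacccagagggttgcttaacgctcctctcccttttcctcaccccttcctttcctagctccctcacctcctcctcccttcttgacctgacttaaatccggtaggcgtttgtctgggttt

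The Slc7a11 window held 2 matches to TGATGNAA, 1 on each strand, between 66 and 40 bases before the start. The Slc1a4 and Slc7a7 windows shown held none. The Slc7a11 peak covered the start and 38 bases of the window, and the nearest match began 2 bases beyond its end. The peaks of Slc1a4 and Slc7a7 covered all 250 bases. Windows were found for 7 of the 10 genes, 12 windows in all, and TGATGNAA occurred in 3 of the 12 windows, of 2 genes. The other gene was Slc7a7, at upstream starts 3754 and 3996 bases away from its nearest peak. Of all 32851 windows of the same length in RefSeq, 3.45% held this motif. The antioxidant response core TGACNNNGC, searched on both strands, occurred in 2 of the 12 windows, of Slc7a1 and Slc38a2, and in 10.2% of all windows. The other motif searched on both strands, CCAAT, occurred in 2 of the 12 windows, of Slc7a11 and Slc1a4, and in 33.8% of all windows. A match describes the letters only and shows no binding.

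Counts over the table summed to between 679938 and 1173016 per CSE-KO library and between 313610 and 676056 per WT library, so every CSE-KO library was deeper. The 27 peaks held between 63 and 548 reads each over the 6 libraries. Of 12 endothelial marker genes, 12 had a peak, with a summed level of 2759 to 3086 CPM in CSE-KO and 2924 to 3267 CPM in WT libraries. CPM are counts scaled to a common library size with TMM, a correction for library composition. Epithelial markers had a peak at 3 of 8 genes (107 to 135 CPM in CSE-KO, 93.7 to 135 CPM in WT), immune markers at 1 of 8 (21.2 to 23.4 and 16.3 to 38.8 CPM) and fibroblast and mural markers at 1 of 8 (21.9 to 50.8 and 32.3 to 46.0 CPM). The surfactant gene Sftpc, the leukocyte gene Ptprc and the fibroblast gene Pdgfra had no row. Peak numbers in the deposited table ran up to 23867, of which 75.0% were present, and what the missing numbers held is not known. A gene or start without a row, here and below, may thus have had a peak that the table leaves out. Cth had no row either, so the mark at the targeted gene does not check the labels. In these bulk libraries, fewer marked cells and less mark per cell cannot be told apart.

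H3K9ac at the transporter peaks did not pass the test between CSE-KO and WT cells. Of the 27 peaks, 27 passed the filter on low counts, and 0 were called at an adjusted p under 0.05 (edgeR's quasi-likelihood test, Benjamini-Hochberg over all tested peaks), where 0.0868% of all 16134 tested peaks were. DESeq2 and voom also called 0 of the 27. At an unadjusted p under 0.05 there was 1 peak (3.70%), against 7.08% of all tested peaks. CSE-KO and WT libraries did not overlap at 2 peaks (7.41%), against 13.0% of all tested peaks. Of the 27 log2 fold changes (CSE-KO over WT), 16 lay above 0 and 11 below. Their median was 0.02, beside -0.00034 over all tested peaks. Libraries were scaled to each other, which by itself sets the median over all peaks near 0. The fold changes are therefore relative, and a change of H3K9ac shared by all peaks would not show in them. For 17 of the 27 peaks the 95% interval lay within 2-fold in either direction. For the other 10, a 2-fold difference in at least 1 direction lay inside it.

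**Figure D1:**
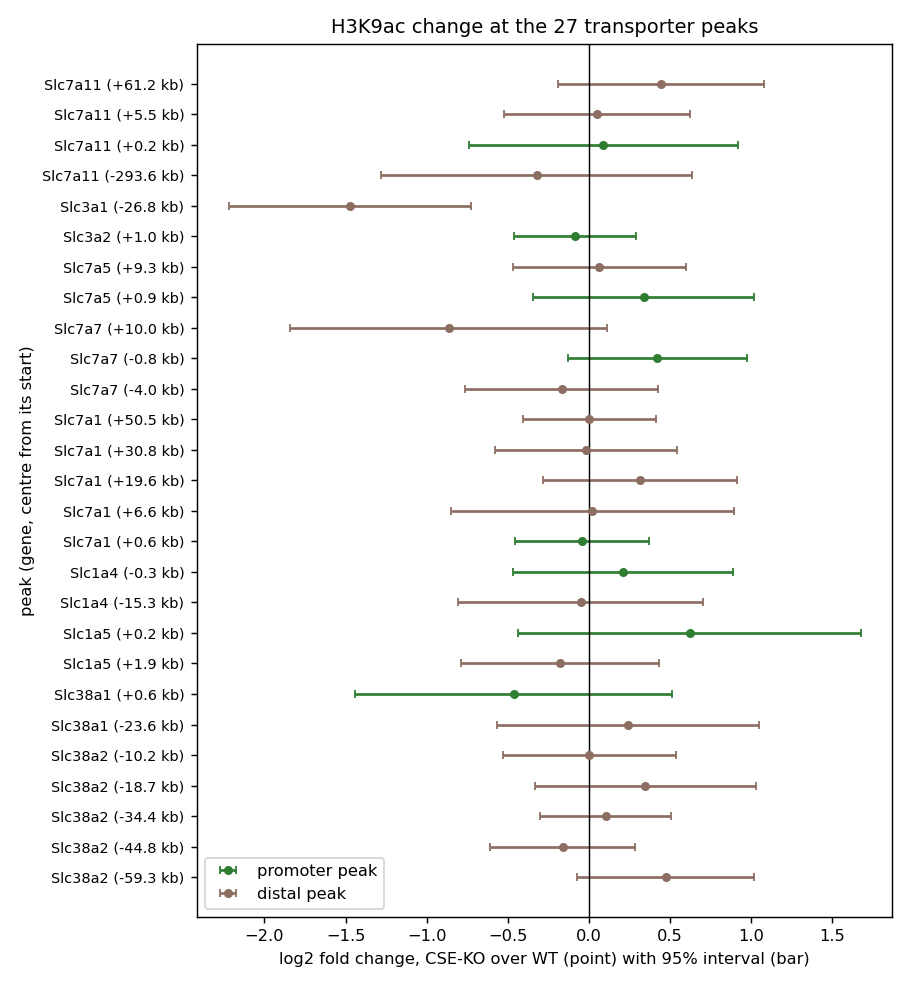
Log2 fold change of H3K9ac, CSE-KO over WT, at the 27 transporter peaks (points) with 95% intervals from the edgeR fit (bars), labelled by gene and by the distance of the peak's centre from the gene start. Of the 27 intervals, 26 span 0. The exception is the Slc3a1 peak, at -1.47, which did not pass after adjustment (adjusted p = 0.15).

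Promoter peaks, whose centre lay within 1 kb of a start or which covered one, made up 8 of the 27 (29.6%), against 45.0% of all rows of the table. Slc3a1 and Slc38a2 had none. Of the 8 peaks, 6 had their centre downstream of the nearest start given in the deposited table, and 2, those of Slc7a11 and Slc1a4, covered that start. The Slc7a7 peak covered another RefSeq start of its gene, the one whose window is shown above. Per kb of peak, so that peaks of different width can be compared, the level averaged over the 6 libraries ran from Slc7a1 at 91.0 ± 7.97 CPM per kb (SD, n = 6) and Slc3a2 at 85.5 ± 16.2 CPM per kb down to Slc1a5 at 39.6 ± 14.8 and Slc38a1 at 38.9 ± 20.2 CPM per kb. Between these lay Slc7a7 (64.9 ± 12.2 CPM per kb), Slc1a4 (59.5 ± 18.8), Slc7a11 (46.2 ± 15.0) and Slc7a5 (41.8 ± 7.59). The library ranges of every pair of neighbours in this order overlapped. Among all promoter peaks of the table the Slc7a1 peak stood at the 89.1th percentile of level per kb and the Slc38a1 peak at the 11.2th.

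**Figure D2:**
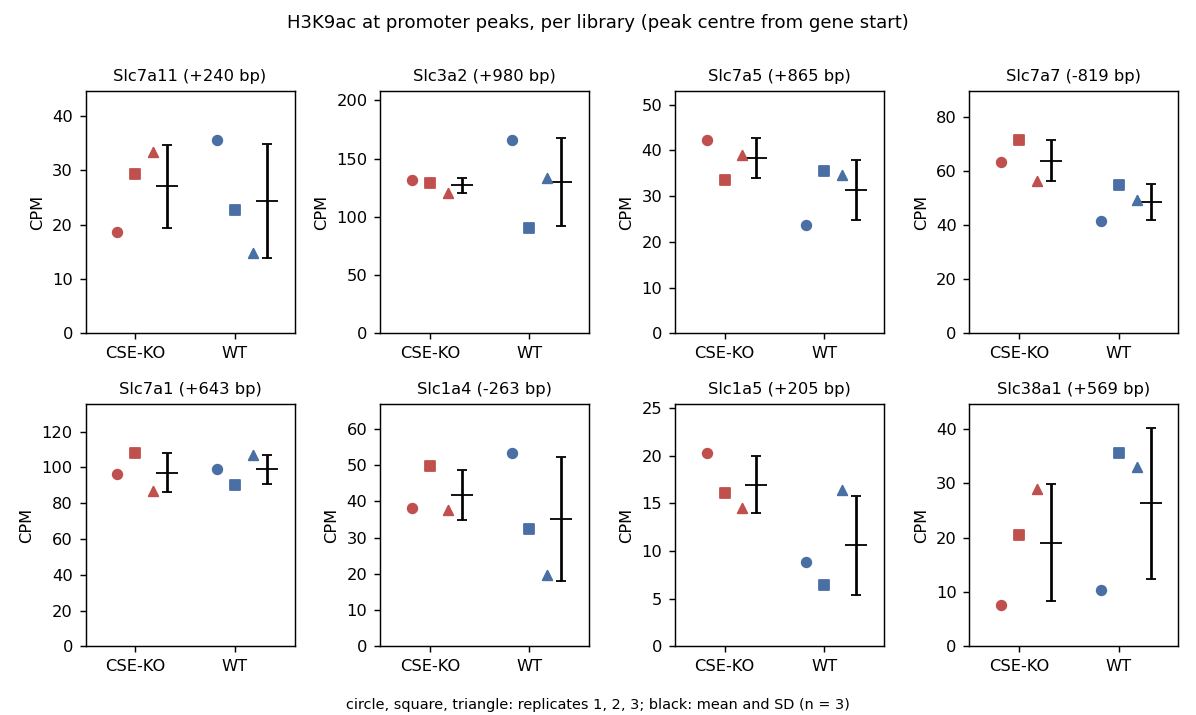
H3K9ac at the 8 promoter peaks in CPM, with 1 point per library, CSE-KO left of WT, and the mean with SD (n = 3) in black. The groups share part of their range at every gene but Slc7a7, where the 3 CSE-KO libraries lie between 56.5 and 71.6 CPM and the 3 WT libraries between 41.5 and 54.9 CPM.

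At the promoter of Slc7a11, the xCT light chain, the peak lay in exon 1 (chr3:50443095-50443651). It covered the start but not the TGATGNAA matches shown above. Its level was 18.6, 29.2 and 33.3 CPM in CSE-KO libraries, against 35.6, 22.6 and 14.8 CPM in WT libraries. The CSE-KO libraries lay inside the WT range. The log2 fold change was 0.09 (95% interval -0.74 to 0.92, edgeR adjusted p = 0.99). With 105 reads over the 6 libraries, ratios of CSE-KO to WT from 0.60 to 1.89 lay inside the interval.

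The highest level of the Slc7a11 locus lay not at the start but in intron 2, at a peak 5545 bp downstream (chr3:50437804-50438332). Per kb it averaged 98.3 ± 18.1 CPM over the 6 libraries (SD), against 46.2 ± 15.0 CPM per kb at the promoter peak, it was above the promoter peak in 6 of 6 libraries, and the ranges did not overlap. It stood at the 97.4th percentile of all distal peaks of the table. Its level did not separate the groups, at 55.9, 43.9 and 55.0 CPM in CSE-KO libraries and 44.5, 67.9 and 44.4 CPM in WT libraries (log2 fold change 0.05, 95% interval -0.53 to 0.62). The peak in intron 7 (chr3:50381760-50383096) had 56.7, 54.1 and 40.6 CPM in CSE-KO and 54.9, 25.9 and 26.3 CPM in WT libraries, so WT replicate 1 lay among the CSE-KO libraries (log2 fold change 0.44, 95% interval -0.19 to 1.08, edgeR adjusted p = 0.81). Without WT replicate 1 it was 0.96 (adjusted p = 0.53), and 0.21 without WT replicate 3 (adjusted p = 0.94). Another peak, 293.6 kb upstream in an L1 repeat, was assigned to the gene by nearest start alone and had a log2 fold change of -0.32 (95% interval -1.28 to 0.63).

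Slc3a2, the 4F2hc heavy chain that xCT needs at the membrane, had 1 peak, in intron 2 with its centre 980 bp downstream of the start (chr19:8712166-8713668). It was the member promoter peak with most reads. It had 132, 129 and 120.2 CPM in CSE-KO libraries, against 166, 90.5 and 133 CPM in WT libraries. The 3 CSE-KO libraries lay inside the WT range (log2 fold change -0.09, 95% interval -0.46 to 0.29, edgeR adjusted p = 0.96). Of 16117 other tested peaks, those of Arhgap18 (Pearson's r of log2(CPM + 1) 0.992 over 6 libraries), Naca (0.989) and Rela (0.988) had the pattern most like it. With 6 libraries 265 peaks reached an r above 0.9, so this is a description only.

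The lowest unadjusted p among the members belonged to the single peak assigned to Slc3a1, the heavy chain rBAT, known from cystine reabsorption in the kidney and mutated in human cystinuria. The peak had 14.4, 16.1 and 33.3 CPM in CSE-KO libraries, against 29.7, 58.2 and 85.6 CPM in WT libraries. CSE-KO replicate 3 lay above WT replicate 1, so the groups overlapped. The log2 fold change was -1.47 (SE 0.37, 95% interval -2.22 to -0.73), and the peak did not pass over all peaks (edgeR adjusted p = 0.15, unadjusted p = 2.44e-04). It passed without WT replicate 1 (adjusted p = 0.019) and lay between 0.12 and 0.76 without each of the other libraries.

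The Slc3a1 name marks the nearest start, not the gene that holds this peak. The peak (chr17:85000984-85002104) lies 26.8 kb upstream of the Slc3a1 start, in intron 2 of Ppm1b, which encodes a protein phosphatase. No row lay at the Slc3a1 start itself. The peak at the Ppm1b start, 42 kb away and chosen after its values were seen, had 161, 129 and 119 CPM in CSE-KO libraries, against 132, 178 and 202 CPM in WT libraries. There too the groups overlapped (log2 fold change -0.30, 95% interval -0.65 to 0.06, edgeR adjusted p = 0.77).

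Slc7a5 and Slc7a7 encode other light chains that pair with 4F2hc. Slc7a5 (LAT1) carries large neutral amino acids such as leucine, and Slc7a7 (y+LAT1) exchanges cationic for neutral amino acids. The Slc7a5 promoter peak, on a CpG island in intron 1 (chr8:121906405-121907237), had 42.3, 33.6 and 39.1 CPM in CSE-KO libraries, against 23.7, 35.5 and 34.6 CPM in WT libraries. CSE-KO replicate 2 lay within the WT range (log2 fold change 0.34, 95% interval -0.34 to 1.02, edgeR adjusted p = 0.88).

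As at Slc7a11, an intron peak of Slc7a5 was above its promoter peak. The peak 9343 bp downstream (chr8:121897993-121898693) averaged 82.8 ± 7.88 CPM per kb (SD, n = 6), against 41.8 ± 7.59 CPM per kb at the promoter peak, it was above it in 6 of 6 libraries and the ranges did not overlap. It had 54.2, 67.2 and 57.9 CPM in CSE-KO and 60.8, 51.7 and 56.0 CPM in WT libraries (log2 fold change 0.06, 95% interval -0.47 to 0.60). The groups overlapped there.

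The Slc7a7 promoter peak (chr14:54409858-54410725, over the sequence shown above) was 1 of the 2 member peaks whose groups did not overlap. It had 63.5, 71.6 and 56.5 CPM in CSE-KO libraries, against 41.5, 54.9 and 49.4 CPM in WT libraries, so the lowest CSE-KO library lay just above the highest WT library. The log2 fold change was 0.42 (95% interval -0.13 to 0.97), which did not pass (edgeR adjusted p = 0.78). The other peaks of the gene had values on the other side of 0. In intron 4 (chr14:54399233-54399643) the means were 11.9 ± 3.24 CPM in CSE-KO and 21.0 ± 9.85 CPM in WT libraries (SD, n = 3 each; log2 fold change -0.86, 95% interval -1.84 to 0.11, edgeR adjusted p = 0.75), and at the intron 2 peak 4.0 kb upstream they were 43.7 ± 4.90 and 49.3 ± 8.50 CPM (log2 fold change -0.17).

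Slc7a1, the arginine and lysine carrier CAT1, had 5 peaks over 58.1 kb, all within the gene and each in an intron. Its promoter peak, on a CpG island (chr5:148398723-148399800), had 96.5, 108 and 86.9 CPM in CSE-KO libraries, against 99.4, 90.5 and 107 CPM in WT libraries. The WT libraries lay inside the CSE-KO range, and the interval was among the narrowest of the members (log2 fold change -0.04, 95% interval -0.45 to 0.37, edgeR adjusted p = 0.99). Per kb the promoter peak was the highest of the locus at 91.0 CPM per kb, above the intron 6 peak 50.5 kb downstream (77.0 ± 8.78 CPM per kb, SD, n = 6) in 6 of 6 libraries, though their ranges overlapped. The remaining peaks averaged 51.3 ± 9.17, 36.2 ± 7.82 and 30.2 ± 11.5 CPM per kb at 30.8, 19.6 and 6.6 kb downstream. Log2 fold changes of the 4 distal peaks were between -0.02 and 0.31, each with an interval that spans 0.

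**Figure D3:**
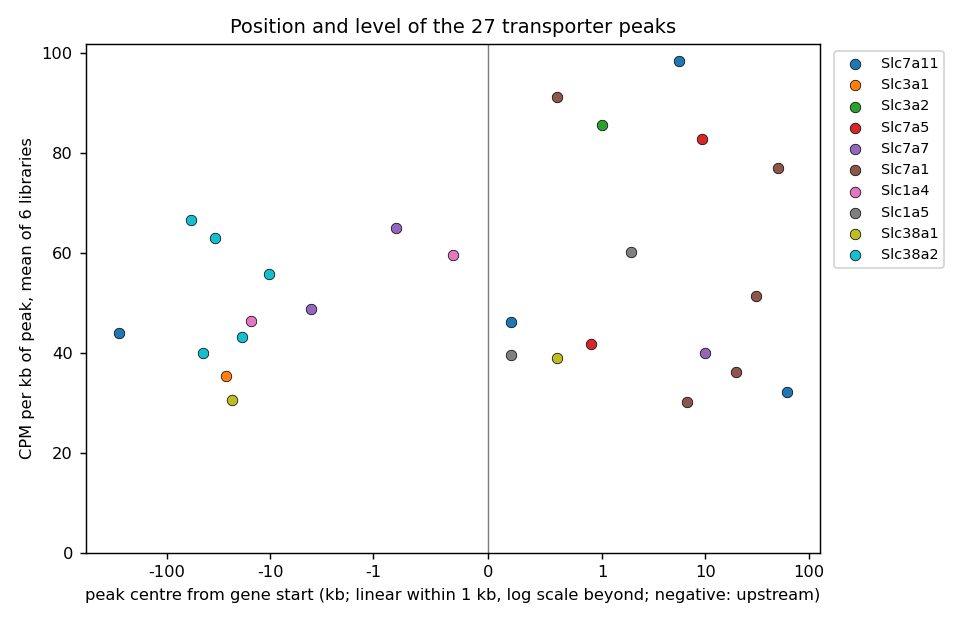
Level of the 27 transporter peaks (CPM per kb of peak, mean of 6 libraries) against the distance of the peak's centre from the gene start, in kb, with upstream negative. The highest point is the Slc7a11 peak in intron 2, and the 5 Slc38a2 peaks lie upstream with none at the start.

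Slc1a4 (ASCT1) and Slc1a5 (ASCT2) are sodium-dependent exchangers of small neutral amino acids, and Slc1a5 is known for glutamine uptake. The Slc1a4 peak over its start (chr11:20332653-20333300, which holds the sequence shown above) had 38.1, 49.7 and 37.7 CPM in CSE-KO libraries, against 53.4, 32.3 and 19.7 CPM in WT libraries. The CSE-KO libraries lay inside the WT range (log2 fold change 0.21, 95% interval -0.47 to 0.89, edgeR adjusted p = 0.94). An intergenic Slc1a4 peak 15.3 kb upstream had a log2 fold change of -0.05.

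At Slc1a5 the promoter peak in exon 1 (chr7:16781377-16781725) had 20.3, 16.1 and 14.5 CPM in CSE-KO libraries, against 8.90, 6.46 and 16.5 CPM in WT libraries. WT replicate 3 lay within the CSE-KO range. This peak had the fewest reads of the members, 63 in all, and the highest upper bound (log2 fold change 0.62, 95% interval -0.44 to 1.68, edgeR adjusted p = 0.86). The deeper peak of the gene, in intron 1 at 1886 bp downstream (chr7:16782816-16783648), had means of 47.9 ± 17.4 CPM in CSE-KO and 52.3 ± 20.9 CPM in WT libraries (SD, n = 3 each; log2 fold change -0.18, 95% interval -0.79 to 0.43).

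Slc38a1 (SNAT1) and Slc38a2 (SNAT2) are sodium-coupled carriers of glutamine and other neutral amino acids, and Slc38a2 is known to be induced when amino acids are withdrawn. The Slc38a1 promoter peak in exon 1 (chr15:96641102-96641684) had 7.62, 20.5 and 29.0 CPM in CSE-KO libraries, against 10.4, 35.5 and 32.9 CPM in WT libraries. Replicate 1 was the lowest of each group, and the groups overlapped (log2 fold change -0.46, 95% interval -1.44 to 0.51, edgeR adjusted p = 0.89). Leaving out CSE-KO replicate 1 gave a log2 fold change of -0.0056. The value was -0.55 without CSE-KO replicate 2, -0.91 without CSE-KO replicate 3, -0.92 without WT replicate 1, -0.25 without WT replicate 2 and -0.16 without WT replicate 3. An intergenic peak 23.6 kb upstream, in an L1 repeat, had a log2 fold change of 0.24.

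Slc38a2 had no promoter row, but 5 intergenic peaks 10.2 to 59.3 kb upstream of its start, spread over 50.1 kb, and none overlapped a RefSeq gene. The farthest (chr15:96758585-96759453) was the other member peak whose groups did not overlap. It had 73.6, 76.0 and 52.1 CPM in CSE-KO libraries, against 51.9, 45.2 and 47.7 CPM in WT libraries, with CSE-KO replicate 3 just above the highest WT library. The log2 fold change was 0.47 (95% interval -0.07 to 1.02) and did not pass (edgeR adjusted p = 0.75). The most deeply covered of the 5 (chr15:96733233-96734942) averaged 110.4 ± 5.79 CPM in CSE-KO and 105 ± 17.8 CPM in WT libraries (SD, n = 3 each; log2 fold change 0.10, 95% interval -0.30 to 0.50). The other 3 had log2 fold changes of 0.003 (on a CpG island 10.2 kb upstream), 0.35 (18.7 kb) and -0.16 (44.8 kb). Per kb the 5 peaks lay between 39.9 ± 6.06 and 66.6 ± 15.5 CPM per kb (SD, n = 6), and the library ranges of neighbours in that order overlapped.

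Summing all peaks of a gene, a test added after the data were seen, gave more reads per value and narrower intervals for every member gene with more than 1 peak. Slc3a1 and Slc3a2 have 1 peak each, so their reads were the same. Of the 10 genes, 0 were called by edgeR over all 10569 tested genes, where 0.123% were called, and DESeq2 called 0. At an unadjusted p under 0.05 there was 1 gene (10.0%), Slc3a1 with its single peak, against 6.88% of all tested genes. The 95% interval lay within 1.5-fold in either direction at 6 genes and within 2-fold at 9. For Slc7a11 the sum was 151, 136 and 151 CPM in CSE-KO libraries, against 154, 148 and 100.2 CPM in WT libraries (log2 fold change 0.14, 95% interval -0.22 to 0.50). WT replicate 3 was the low library. The narrowest intervals were those of Slc38a2 (log2 fold change 0.11, 95% interval -0.12 to 0.34) and Slc7a1 (0.04, -0.20 to 0.28).

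The groups did not overlap in the summed signal of 1 of the 10 genes (10.0%), Slc7a5, against 12.5% of all tested genes. It had 97.1, 101 and 97.4 CPM in CSE-KO libraries, against 84.6, 86.8 and 90.3 CPM in WT libraries. The log2 fold change was 0.17 (95% interval -0.25 to 0.59) and did not pass (edgeR adjusted p = 0.93).

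**Figure D4:**
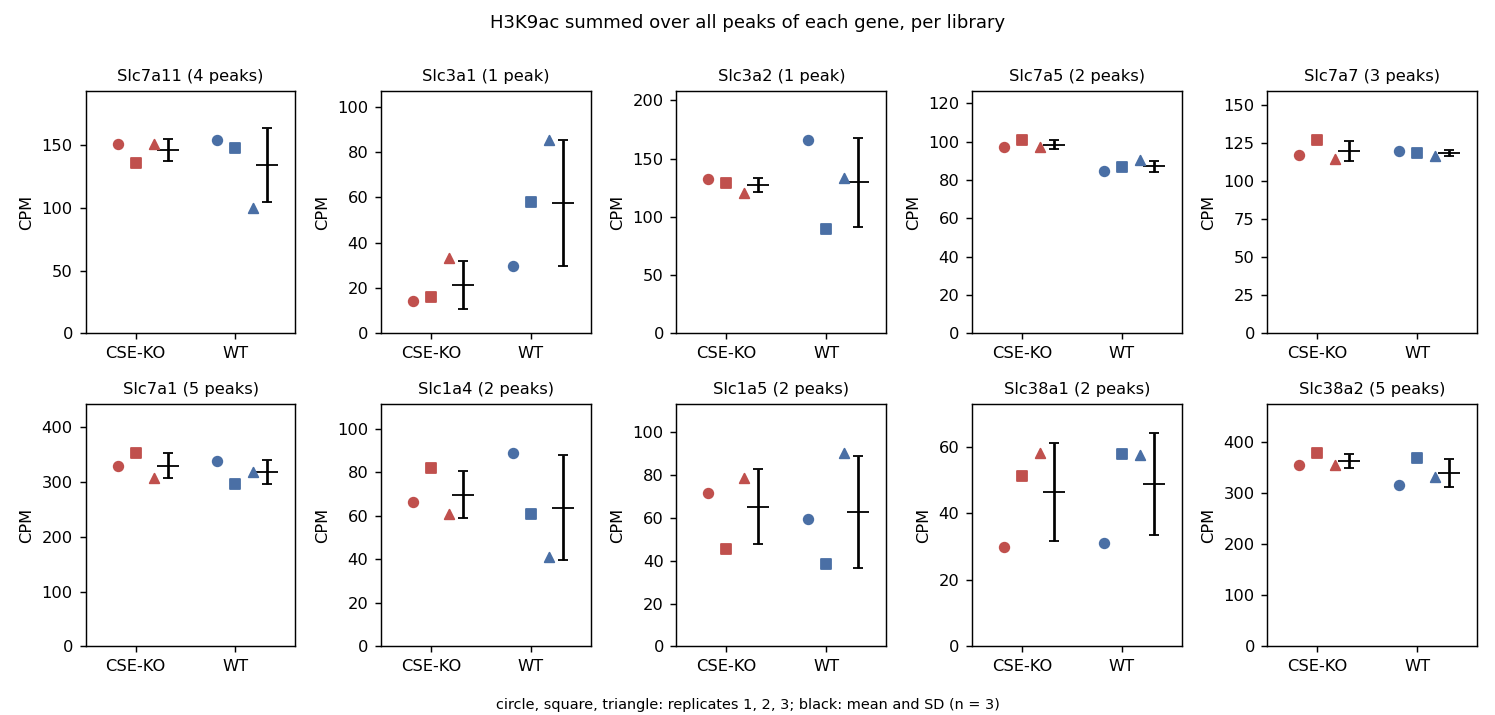
H3K9ac summed over all peaks of each of the 10 transporter genes in CPM, with 1 point per library, CSE-KO left of WT, and the mean with SD (n = 3) in black. Slc7a5 is the gene whose groups do not overlap, and the largest gap between means is at Slc3a1, at 21.3 CPM in CSE-KO and 57.6 CPM in WT.

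Among 39 other genes listed from families of amino acid and cystine carriers, 16 had a row in the table, 21 peaks in all. Of the 19 that passed the filter, 0 were called in either direction (edgeR), against 0.0868% of all tested peaks. An unadjusted p under 0.05 was reached by 0 of the 19, against 7.08% of all tested peaks. Log2 fold changes lay above 0 at 12 peaks and below at 7 (median 0.10). The smallest p belonged to a distal peak of Slc38a6, a carrier of the same family as Slc38a1, at 21.1 ± 6.85 CPM in CSE-KO and 10.02 ± 6.62 CPM in WT libraries (SD, n = 3 each; log2 fold change 0.94, SE 0.51, edgeR adjusted p = 0.74). Next came a distal peak of Slc43a2, a carrier of large neutral amino acids (0.50, SE 0.32), the promoter peak of Slc43a3 (0.19, SE 0.16) and a distal peak of the taurine carrier gene Slc6a6 (0.54, SE 0.51). The lysosomal cystine exporter gene Ctns had no row.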

How the data were processed

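H3K9ac CUT&RUN libraries of mouse lung endothelial cells, 3 CSE-KO and 3 WT, were analysed from 1 deposited table with a row per peak. Per the submitters' processing notes, the tools were featureCounts, Picard 3.1.1, DESeq2 1.36.0, STAR 2.7.11a and Trimmomatic 0.39, with no order or settings. No source used here names the peak caller. The unit tested was the authors' deposited raw count for each peak in each library, and the authors' normalized values were not used. The notes name mm39, but starts implied by the table lay within 100 bp of a RefSeq gene end on GRCm38.p6 for 67.3% of 17634 peaks, so coordinates are read as GRCm38.

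Differences were tested over all peaks with edgeR 4.0.16 in R 4.3.3. The steps were filterByExpr (minimum count 10), TMM factors, glmQLFit, and a two-sided glmQLFTest of the group, its single term, with Benjamini-Hochberg adjustment and a threshold of 0.05. SE and 95% intervals come from the quasi-likelihood F statistic. The procedure was tested on simulated data. Depth limits precision: single peaks have few reads. Every pair of libraries within a group differed beyond sampling noise (a chi-square of 1.87 to 2.15 for each degree of freedom). This does not show that they came from separate animals. Each library was counted as 1 replicate. Promoter sequences and gene positions are RefSeq's, on GRCm38.p6. Every member row is described, with all 6 values for promoter rows and for distal rows with an unadjusted p under 0.05 or groups that do not overlap. Members and lists were chosen with earlier results of these data known. Alternatives were other scalings, DESeq2 1.42.0, voom (limma 3.58.1), other filters, a replicate block and each library left out.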

Additional observations from a re-analysis of the deposited data

How the results depend on the processing

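No transporter peak was called under any of the 7 alternatives that keep all 6 libraries. A mean count of 50 or more left 5 of the 27 to test, and the Slc3a1 peak was not among them. With the MuLV-int peaks left out, an alternative chosen after seeing the data, no transporter peak was called either. Leaving out each library in turn gave 0 to 1 called member peaks and 0 to 1 called genes with peaks summed, in each case Slc3a1 without WT replicate 1, where the log2 fold change was -1.84 for the peak and -1.83 for the gene fit. Without each library in turn the Slc3a1 peak lay between -1.91 and -0.99. Over all peaks the count of 14 went to 7 with DESeq2, to 8 with a mean count of 50 or more, to 2 without the MuLV-int peaks, and to between 6 (without CSE-KO replicate 1) and 13 with 1 library left out; it was 7 without WT replicate 3 and 8 without CSE-KO replicate 3.

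Whether the replicate numbers pair the libraries is not settled by these data, as the correlations were small and each group has 3 libraries. Deviations from the group mean correlated at 0.0077 to 0.064 between libraries of the same number and at -0.033 to 0.018 otherwise. The highest, 0.064, was between CSE-KO replicate 1 and WT replicate 1, while CSE-KO replicates 2 and 3 correlated best with another number. With the replicate block 15 peaks were called in all and 0 of the members (lowest adjusted p 0.12, edgeR), and 0 genes with peaks summed (lowest adjusted p 0.066).

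The direction of 14 of the 27 peaks and of 3 of the 10 summed genes held under every alternative run on them. Those that turned had a log2 fold change of at most 0.21 in size, none was called, and the cause was not tested. With 1 library left out in turn, log2 fold changes were, at single peaks, -0.13 to 0.75 (Slc1a4, -0.3 kb), -0.25 to 0.18 (Slc1a4, -15.3 kb), -0.39 to 0.14 (Slc1a5, 1.9 kb), -0.19 to 0.22 (Slc38a2, -10.2 kb), -0.021 to 0.20 (Slc38a2, -34.4 kb), -0.24 to 0.13 (Slc3a2), -0.13 to 0.16 (Slc7a1, 50.5 kb), -0.18 to 0.21 (Slc7a1, 30.8 kb), -0.42 to 0.40 (Slc7a1, 6.6 kb), -0.11 to 0.029 (Slc7a1, 0.6 kb), -0.052 to 0.22 (Slc7a11, 5.5 kb), -0.22 to 0.56 (Slc7a11, 0.2 kb) and -0.022 to 0.14 (Slc7a5, 9.3 kb). Peaks that kept their direction moved too, to 0.45 to 1.08 (Slc1a5, 0.2 kb), -0.92 to -0.0056 (Slc38a1, 0.6 kb), 0.15 to 0.40 (Slc38a1, -23.6 kb), 0.24 to 0.50 (Slc38a2, -18.7 kb), -0.34 to -0.016 (Slc38a2, -44.8 kb), 0.39 to 0.62 (Slc38a2, -59.3 kb), 0.21 to 0.49 (Slc7a1, 19.6 kb), 0.21 to 0.96 (Slc7a11, 61.2 kb), -0.55 to -0.047 (Slc7a11, -293.6 kb), 0.15 to 0.45 (Slc7a5, 0.9 kb), -1.11 to -0.65 (Slc7a7, 10.0 kb), 0.31 to 0.50 (Slc7a7, -0.8 kb) and -0.32 to -0.063 (Slc7a7, -4.0 kb). With peaks summed, those that turned were at -0.17 to 0.51 (Slc1a4), -0.18 to 0.35 (Slc1a5), -0.36 to 0.21 (Slc38a1), -0.23 to 0.14 (Slc3a2), -0.0066 to 0.091 (Slc7a1), -0.052 to 0.30 (Slc7a11) and -0.028 to 0.043 (Slc7a7). Summed Slc38a2 was at 0.060 to 0.16 and summed Slc7a5 at 0.14 to 0.20. Other alternatives turned the Slc7a1 peak at 50.5 kb (-0.00048 with RLE factors, -0.00013 with DESeq2, -0.0052 with no filter and -0.0052 with the replicate block), the Slc7a1 peak at 6.6 kb (-0.018 with DESeq2), the Slc38a2 peak at -10.2 kb (-0.069 with voom, -0.0031 with no filter, -0.014 with the replicate block) and summed Slc1a5 (-0.0019 with RLE factors).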
